A study of Mus musculus with 6 samples.

Results

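The genes described here are 10 genes of ribosome biogenesis that were measured in splenic CD8+ T cells specific for murine cytomegalovirus (MCMV). They are Ncl, Imp4, Noc4l, Gnl3, Noc2l, Ftsj3, Ebna1bp2, Rpl7l1, Rpl3 and Eif6. They were chosen by gene symbol, and all 10 have a row among the 1018 genes of the deposited table, here called the listed genes. The cells came from 3 B cell-deficient JHT mice and 3 WT mice on the C57BL/6J background, 1 library per mouse. JHT mice lack B cells for life, since a germline deletion takes out the heavy chain J segments that a rearranged heavy chain gene needs, and the WT controls were littermates. All 6 mice were adults infected with MCMV, and the cells were sorted on day 7 after infection by an MHC tetramer that carries the viral M45 peptide, with equal cell numbers per group.

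Ribosomes are built in the nucleolus. RNA polymerase I makes a long precursor of the ribosomal RNA, which small nucleolar RNAs guide for modification and which is cut, folded and loaded with ribosomal proteins as the small and large subunits part ways. Assembly factors bind these precursors only for a time and leave before the subunits take part in translation. T cells that have met antigen enlarge their nucleoli and make many ribosomes before and while they divide.

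All 10 genes were higher in JHT than in WT cells, by a median of 2.75-fold and from 2.04-fold for Ncl to 5.45-fold for Noc2l. This direction says little by itself, because the table is a selection. All 1018 listed genes had a ratio of group means of at least 2 in either direction and an unadjusted p under 0.05 in an equal-variance test of the untransformed values, recomputed here. With limma on log2(value + 1), 10 of 10 genes passed at an adjusted p under 0.05 and were higher, against a background of 100% of the listed genes that passed and 96.6% that passed and were higher. Likewise the 3 JHT values lay above the 3 WT values in 10 of 10 genes, against 100% of the listed genes that did not overlap in either direction. The limma adjusted p of the 10 genes ran from 1.19e-05 for Noc2l to 0.0137 for Ncl. The median ratio of the 983 higher listed genes was 2.93. The selection by the same contrast favours small p-values, so none here can be taken at face value. An exact two-sided permutation test of 3 against 3 mice cannot go below p = 0.1. Values below are the deposited values, which the authors scaled for gene length and library.

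**Figure D1:**
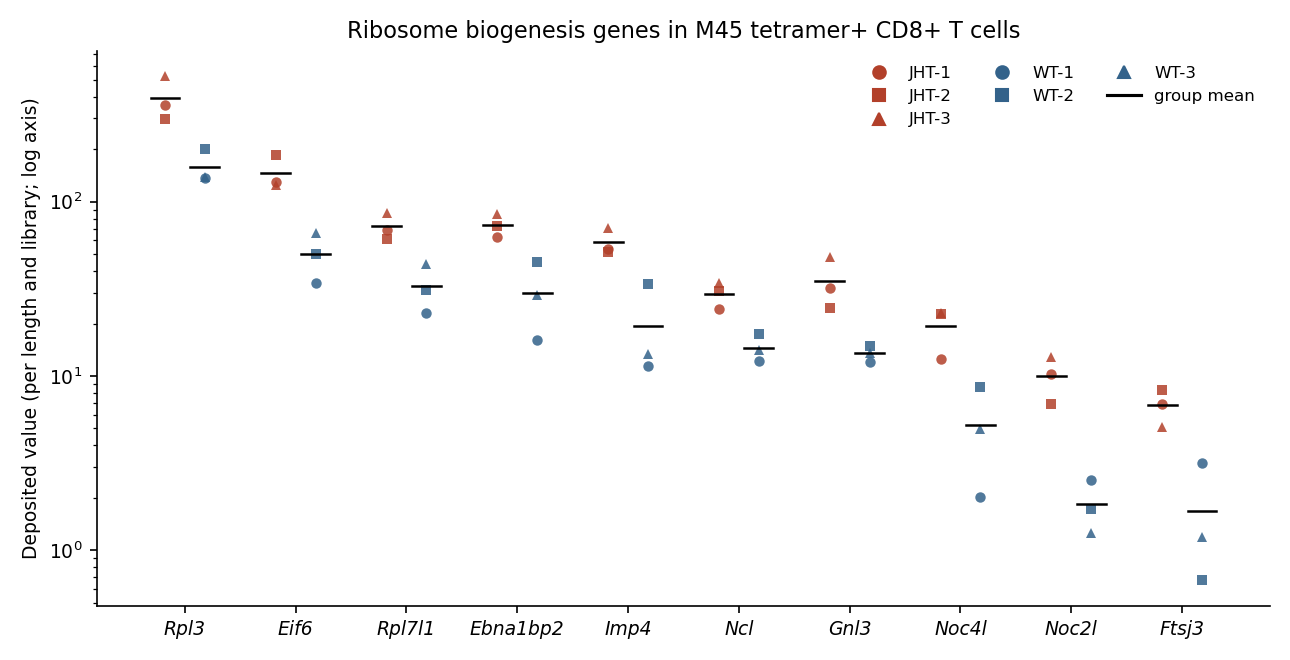
Deposited value (log axis, scaled per gene length and library) of the 10 genes in 3 JHT libraries (red, left) and 3 WT libraries (blue, right), with marker shape for the replicate number and a bar for the group mean. In each gene the 3 JHT values lie above the 3 WT values, from Rpl3 with the highest values (526 in JHT-3) to Ftsj3 with the lowest (0.671 in WT-2).

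Some library-wide measures also differed between the groups, and their part in the differences was not tested. The chemokine gene Ccl5 took 14.5% to 22.6% of the summed listed values in the JHT libraries and 50.02% to 68.8% in the WT libraries. The median listed gene had a value of 25.0 to 32.6 in JHT and 7.63 to 11.6 in WT libraries, and WT-1 was the lowest. Of 16 CD8 T cell marker genes only Lck, Gzmb and Prf1 had a row, so the labelled cell type could not be checked against its defining receptor genes. In 8 lists for other cell types, 66 markers in all, only the erythroid marker Bpgm had a row. The table holds only genes that differed between the groups, so a missing row says nothing about whether other cells were present. In sorted bulk samples, fewer cells of a kind and less RNA per cell cannot be told apart. Whole reads per gene were recovered from the value ratios, and the 10 genes held between 43 reads (Noc4l in WT-1) and 18614 reads (Rpl3 in JHT-3) in a library. These and the reads given below are known only up to a common factor per gene, so they are lower limits. Reads of amplified cDNA are not independent molecules, so their number limits the precision only in part.

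Nucleolin, encoded by Ncl (chromosome 1, 86344719 to 86359400, minus strand, GRCm38), is an abundant nucleolar RNA-binding protein with roles in RNA polymerase I transcription and precursor processing. Ncl had values of 24.2, 30.8 and 34.1 in JHT libraries 1 to 3, against 12.1, 17.3 and 14.2 in WT libraries 1 to 3. The groups did not overlap, but the lowest JHT value was only 1.40 times the highest WT value. The means were 29.7 ± 5.03 in JHT and 14.5 ± 2.62 in WT cells (SD, n = 3 each), and the ratio of 2.04 was the smallest of the 10 genes. It lay close to the 2-fold limit that every listed gene passed. The log2 change of Ncl was 0.98 ± 0.40 (SE), with a limma adjusted p of 0.0137. For this and the genes below, the SE comes from a spread pooled over the listed genes and hardly reflects the gene's own spread. Without JHT-3 it was 0.88 and no longer passed (limma adjusted p 0.0538).

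Imp4 and Noc4l act on the small subunit. Imp4 (chromosome 1, 34439851 to 34449356, plus strand) encodes a protein of the small subunit processome, the large complex that forms on the nascent precursor RNA. Imp4 had values of 53.7, 51.6 and 70.6 in the JHT libraries, against 11.4, 33.6 and 13.4 in the WT libraries. JHT libraries differed by at most 1.37-fold, whereas WT-2 stood 2.96-fold above WT-1. The means of Imp4 were 58.7 ± 10.4 in JHT and 19.5 ± 12.3 in WT cells (SD, n = 3 each), a ratio of 3.01. That ratio became 4.74 without WT-2 and 2.49 without WT-1. The log2 change of Imp4 was 1.69 ± 0.40 (SE).

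Noc4l (chromosome 5, 110648418 to 110653417, minus strand) is the homolog of yeast Noc4, a nucleolar protein of small subunit assembly. Noc4l had values of 12.5, 22.6 and 23.03 in JHT libraries 1 to 3, against 2.02, 8.65 and 4.99 in WT libraries 1 to 3. The WT values spread over 4.29-fold and rested on 43, 211 and 129 reads, the JHT values on 296, 689 and 539 reads. The means were 19.4 ± 5.94 in JHT and 5.22 ± 3.32 in WT cells (SD, n = 3 each), a ratio of 3.71. The log2 change of Noc4l was 1.82 ± 0.39 (SE).

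The large subunit factors included both the largest and some of the smallest ratios. Noc2l (chromosome 4, 156236010 to 156247616, plus strand) is the homolog of yeast Noc2, which escorts large subunit precursors out of the nucleolus. In human cells its protein is also known to bind p53 and to inhibit histone acetyltransferases. Noc2l had values of 10.2, 6.90 and 12.9 in the JHT libraries, against 2.52, 1.73 and 1.25 in the WT libraries. It was the gene with the widest gap between groups, since its lowest JHT value was 2.74 times its highest WT value. The means were 9.999 ± 3.01 in JHT and 1.83 ± 0.640 in WT cells (SD, n = 3 each), a ratio of 5.45 that exceeded or equalled that of 92.9% of the higher listed genes. The log2 change was 1.94 ± 0.41 (SE). Unlike most of the 10 genes, Noc2l was highest among WT libraries in WT-1.

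Ftsj3 (chromosome 11, 106249142 to 106256079, minus strand) is the homolog of the yeast RNA methyltransferase Spb1 and acts in precursor processing. Ftsj3 had values of 6.92, 8.34 and 5.08 in JHT libraries 1 to 3, against 3.16, 0.671 and 1.198 in WT libraries 1 to 3. WT-1 was here the highest WT library, 4.70-fold above WT-2. The means were 6.78 ± 1.64 in JHT and 1.68 ± 1.31 in WT cells (SD, n = 3 each), a ratio of 4.05. That ratio became 7.25 without WT-1 and 3.11 without WT-2. The log2 change of Ftsj3 was 1.63 ± 0.41 (SE).

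Gnl3 (chromosome 14, 31012433 to 31019152, minus strand) encodes nucleostemin, a nucleolar GTP-binding protein of dividing cells. Gnl3 had values of 31.8, 24.4 and 48.4 in the JHT libraries, against 12.0, 14.9 and 13.6 in the WT libraries. The WT libraries were close together, with an SD of 10.5% of the mean, and the JHT libraries were not, with 35.3%. The means were 34.9 ± 12.3 in JHT and 13.5 ± 1.42 in WT cells (SD, n = 3 each), a ratio of 2.58 and a log2 change of 1.26 ± 0.40 (SE).

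Ebna1bp2 (chromosome 4, 118620799 to 118627776, plus strand) is the homolog of yeast Ebp2, a factor of large subunit assembly. Ebna1bp2 had values of 62.9, 72.4 and 84.8 in the JHT libraries, against 16.2, 44.997 and 29.2 in the WT libraries. It had the smallest relative spread of the 10 genes in JHT mice, with an SD of 15.0% of the mean, against 47.9% in WT mice. The means were 73.4 ± 10.97 in JHT and 30.1 ± 14.4 in WT cells (SD, n = 3 each), a ratio of 2.44 and a log2 change of 1.36 ± 0.40 (SE).

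Rpl3 encodes a protein of the mature large subunit that lies near its catalytic centre, and Rpl7l1 is a paralog of the large subunit protein gene Rpl7. Rpl3 (chromosome 15, 80077791 to 80091868, minus strand) had values of 359, 296 and 526 in the JHT libraries, against 136, 199 and 138 in the WT libraries. These were the highest values of the 10 genes in every library, and Rpl3 made up 39.0% to 51.8% of the summed values of the 10 genes in JHT and 42.3% to 53.9% in WT libraries, so that its share of the sum overlapped between groups. The means were 394 ± 119 in JHT and 158 ± 36.0 in WT cells (SD, n = 3 each), a ratio of 2.50 and a log2 change of 1.30 ± 0.37 (SE).

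Rpl7l1 (chromosome 17, 46773907 to 46782672, minus strand) had values of 68.6, 61.3 and 86.3 in the JHT libraries, against 22.95, 31.3 and 44.2 in the WT libraries. Its lowest JHT value was 1.39 times its highest WT value, the narrowest gap of the 10 genes. The means were 72.1 ± 12.9 in JHT and 32.8 ± 10.7 in WT cells (SD, n = 3 each), a ratio of 2.20 and a log2 change of 1.15 ± 0.40 (SE). Rpl3 and Rpl7l1 were the only listed genes that carried a symbol of a cytosolic ribosomal protein or its paralog, and the other ribosomal protein genes were not analysed here.

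Eif6 (chromosome 2, 155819832 to 155826925, minus strand) encodes a protein that sits on the new large subunit. The protein keeps that subunit from joining the small one until its release in the cytoplasm. Eif6 had values of 130.3, 184 and 124 in JHT libraries 1 to 3, against 34.0, 49.9 and 66.2 in WT libraries 1 to 3. JHT-2 was the highest library, whereas JHT-3 was the highest in 8 of the other genes. The means were 146 ± 33.2 in JHT and 50.04 ± 16.1 in WT cells (SD, n = 3 each), a ratio of 2.92 and a log2 change of 1.56 ± 0.39 (SE).

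The same libraries tended to be low or high across the genes. WT-1 was the lowest WT library in 8 of the 10 genes, and it was the lowest in 65.8% of the 983 higher listed genes. JHT-3 was the highest JHT library in 8 of the 10 genes, and in 65.6% of the higher listed genes. Without WT-1 the median ratio of the 10 genes was 2.47, and with any other library left out it ranged from 2.48 to 3.02.

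The direction of 5 of the 10 genes turned on the scaling of the libraries. The median log2 change was 1.46 over the 10 genes and 1.47 over all listed genes. After all libraries were shifted to a common median of their listed genes, which removes any shared rise whatever its source, Noc2l, Noc4l, Imp4, Ftsj3 and Eif6 stayed above 0, with log2 changes of 0.50, 0.38, 0.25, 0.19 and 0.12. Ebna1bp2, Rpl3, Gnl3, Rpl7l1 and Ncl were below 0, with -0.08, -0.14, -0.18, -0.29 and -0.46. None of the 10 passed the limma test in either direction (0 of 10, and 0 at an unadjusted p under 0.05), against 5.50% of the listed genes. With quantile normalization none passed either (0 of 10, and 0 at an unadjusted p under 0.05), against 5.89%, and Ftsj3 was also below 0. Of the 1018 listed genes, 983 were higher under the scaling of the authors. A gene that turned lower here thus rose less than the typical listed gene under that scaling. Whether it rose or fell apart from the scaling was not tested.

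**Figure D2:**
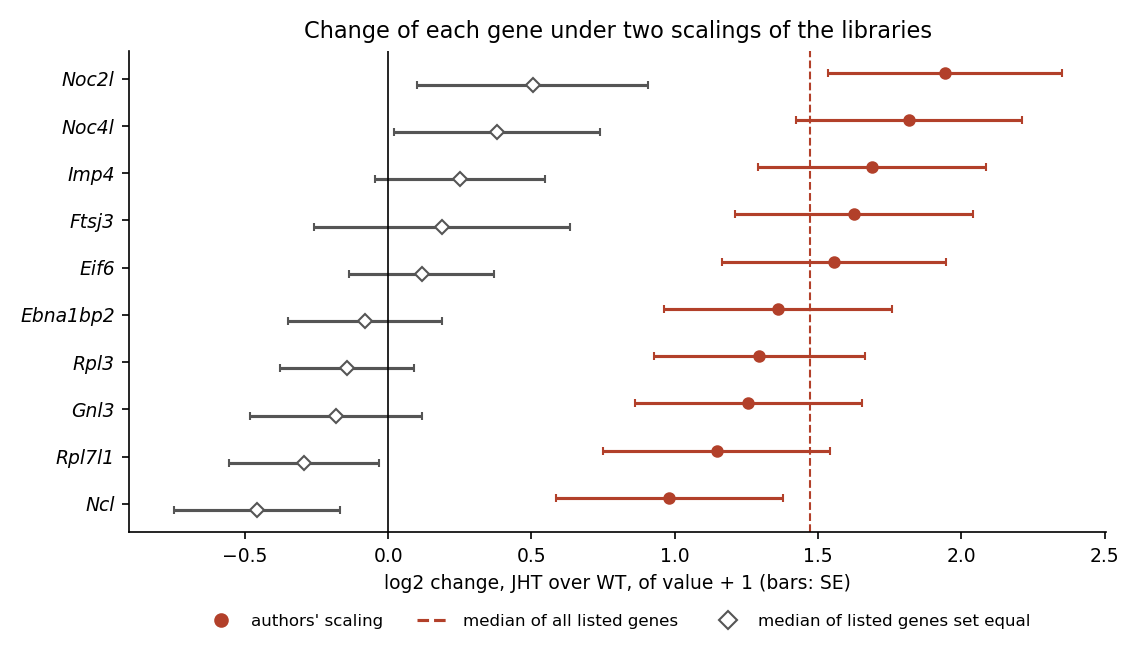
Log2 change of JHT over WT (x axis, on log2(value + 1), bars are SE of the limma fit) for each gene under the scaling of the authors (red circles) and after a shift to a common median (open diamonds). The red circles run from 0.98 for Ncl to 1.94 for Noc2l around the median of all listed genes at 1.47 (dashed line), and the diamonds lie on both sides of 0.

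To compare the genes with each other inside a library, each was also expressed as its log2(value + 1) minus the mean of the other 9 genes in the same library. On this scale Ncl was at -0.76, -0.46 and -0.61 in the JHT libraries, against -0.03, -0.07 and -0.10 in the WT libraries, a difference of -0.54. Its groups did not overlap, so that Ncl was lower relative to the other 9 genes in every JHT mouse. The groups of the other 9 genes overlapped, with differences from -0.36 for Rpl7l1 to 0.53 for Noc2l. As background, 15.8% of the 1008 other listed genes did not overlap when set against the mean of the 10 genes. Thus 1 of 10 genes is close to the background share. The fixed 1 weighs more on low values, so that these differences still depend on the scaling. With no pseudocount, an alternative chosen after seeing the data that is free of library scaling, the differences were -0.67 for Ncl and -0.52 for Rpl7l1. The groups of these 2 genes did not overlap, against 18.2% of 994 other listed genes above 0 in all libraries. The remaining 8 genes overlapped, and Eif6 changed sign, to -0.07 without a pseudocount, against 0.10 with it. The relative level of Ftsj3 also rested on single libraries, since its difference of 0.18 became 0.74 without WT-1, -0.28 without WT-2 and -0.02 without JHT-2. The summed values of the 10 genes were 760, 759 and 1015 in the JHT libraries, against 252, 403 and 326 in the WT libraries. They made up 0.813%, 0.727% and 0.914% of the summed listed values other than Ccl5 in the JHT libraries. In the WT libraries these shares were 0.764%, 0.793% and 0.672%, and they overlapped with those of JHT. Ccl5 was lower in JHT cells, so leaving it out affects the shares. Most other listed genes were selected for the same rise, so similar shares say little.

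**Figure D3:**
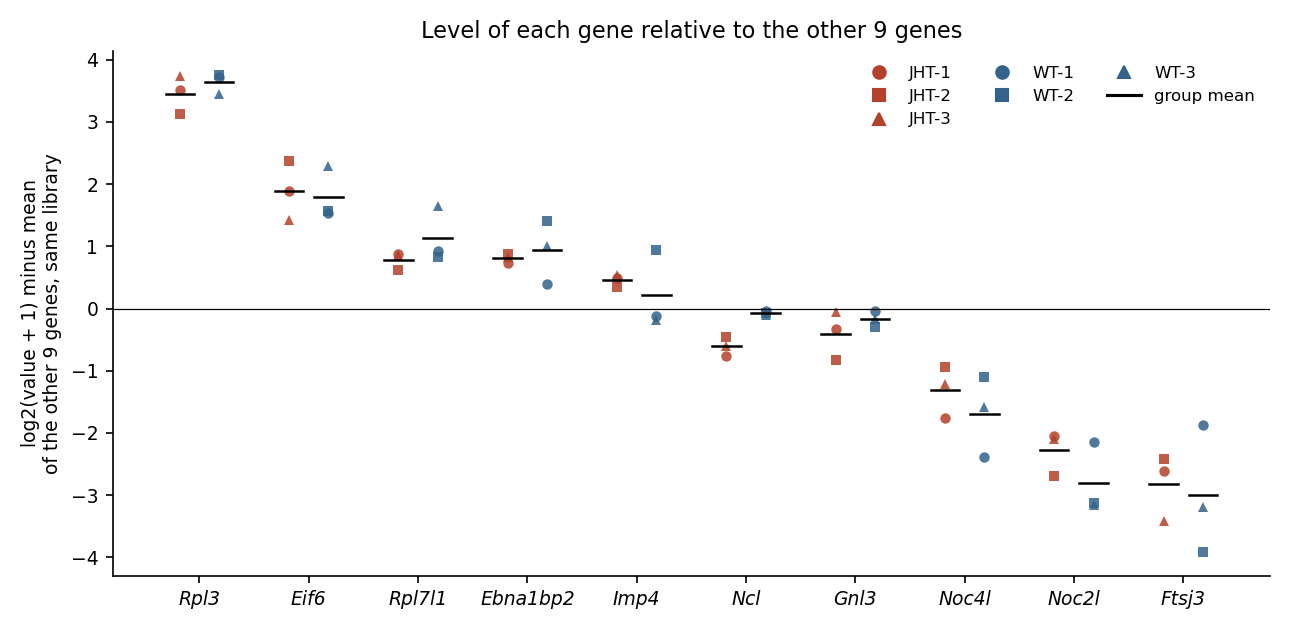
Level of each gene relative to the other 9 genes (y axis, log2(value + 1) minus the mean of the other 9 in the same library) in JHT libraries (red, left) and WT libraries (blue, right), with a bar for the group mean. The 3 JHT values of Ncl lie below its 3 WT values, with means of -0.61 and -0.07, while the groups of the other 9 genes overlap on this scale.

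The rest of the pathway was followed in 6 lists with 195 genes, of which 32 had a row, 9 of them among the 10 genes above (Rpl3 belongs to none of the lists). The 23 others were all higher in JHT cells, by a median of 3.10-fold, and all 23 passed the limma test, as all listed genes did. Among all listed genes 96.6% were higher, and the higher ones had a median ratio of 2.93. The share of all measured genes that are listed is unknown. The counts of listed genes for each list therefore cannot show enrichment or a rise of the whole pathway. Of 21 genes of RNA polymerase I transcription, Polr1e, which encodes a polymerase subunit, was listed with a ratio of 3.44. None of 6 genes of box H/ACA particles was listed, and 2 of 12 genes of box C/D particles were. Of these, Ruvbl1, an ATPase used in particle assembly, had values of 26.2, 30.7 and 51.6 in the JHT libraries, against 6.60, 14.9 and 12.3 in the WT libraries. Rrp9, a protein of the small nucleolar RNA particle that starts precursor cleavage, had values of 10.4, 6.04 and 9.21 in the JHT libraries, against 0.0668, 0.486 and 0 in the WT libraries. The WT values of Rrp9 rested on 3, 25 and 0 reads. Its ratio of means of 46.4, the largest in these lists, became 256 without WT-2 and 30.9 without WT-3.

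Of 57 small subunit genes 8 were listed, and of 75 large subunit genes 17 were. Ddx47, an RNA helicase, averaged 67.5 ± 23.7 in JHT and 22.7 ± 9.44 in WT cells (SD, n = 3 each), and Utp3 averaged 49.7 ± 7.17 in JHT and 18.04 ± 5.85 in WT cells. Nifk, a nucleolar protein that binds the proliferation marker Ki-67, averaged 68.2 ± 23.2 in JHT and 24.2 ± 7.47 in WT cells (SD, n = 3 each). Gnl2, a GTP-binding relative of Gnl3, had a ratio of 5.28, the highest of the 10 listed large subunit genes outside the set, and was named after its values were seen. Its values were 8.64, 8.48 and 17.0 in the JHT libraries, against 1.37, 1.34 and 3.75 in the WT libraries. The ratio was 8.38 without WT-3 and 3.97 without JHT-3. Among 24 genes of precursor cleavage and the RNA exosome, Pop4, Exosc6, Exosc2 and Eri1 were listed, with ratios of 2.13, 2.78, 3.18 and 4.14. The ratio of Exosc2 became 5.38 without WT-2 and 2.64 without WT-3.

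**Figure D4:**
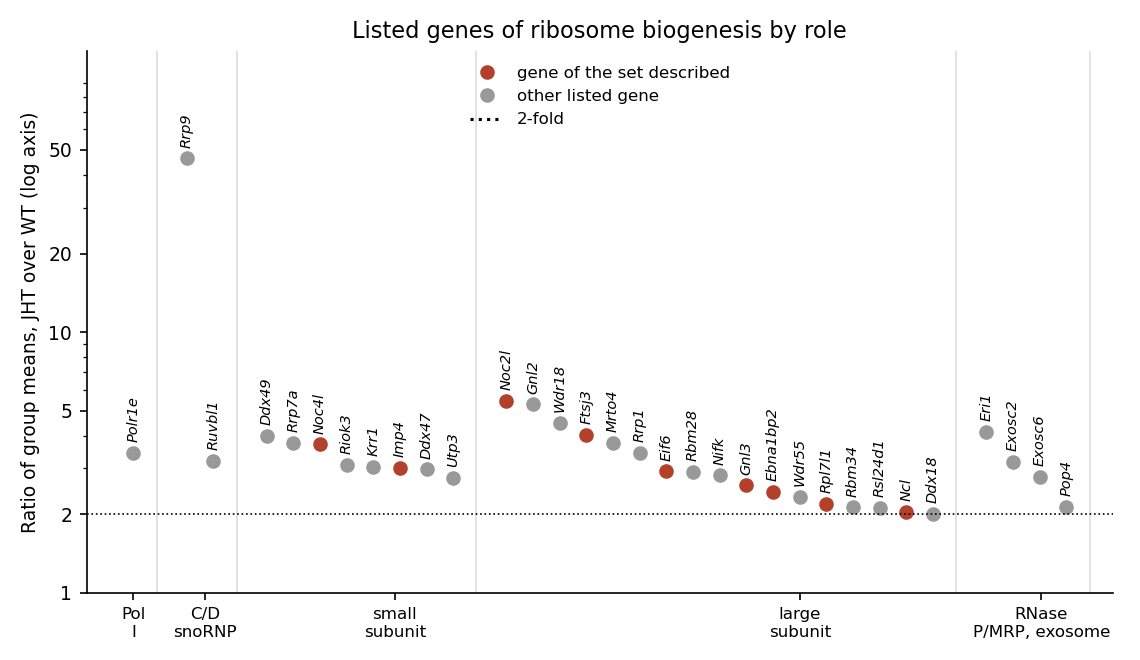
Ratio of group means of JHT over WT (log axis) for the 32 listed genes of the pathway lists, grouped by role, with genes of the set in red and other listed genes in grey. All lie above the dotted line at 2, since the table holds no smaller ratio, and Rrp9 stands apart at 46.4.

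The genes also differ in what surrounds them in the genome, which bears on how surely reads can be assigned to them. Counting by strand is not stated in the sources used here, and without it reads from overlapping genes cannot be told apart. Noc2l overlaps Samd11 on the opposite strand, and 18.3% of the 75-base stretches of its transcripts are found in that gene. Other overlaps on the opposite strand are those of Gnl3 with Pbrm1, Imp4 with Gm28306, Eif6 with Gm16098, Rpl3 with Syngr1 and Rpl7l1 with Gm26904. Rpl3 shares 64.0% of its 75-base stretches and 51.4% of its 150-base stretches with other annotated genes, mostly the pseudogene Rpl3-ps1, so its value is uncertain. In the other 8 genes at most 3.14% of 75-base stretches were shared. Ncl and Gnl3 each contain 3 genes of small nucleolar RNAs (Snora75, Snord82 and Gm24148 in Ncl, Snord69, Snord19 and Gm24916 in Gnl3), and Rpl3 contains Snord83b and Gm22077, all on the strand of the host gene. Rpl3 also contains Snord43 on its own strand, which the annotation types as a miRNA gene. These RNAs were not analysed here.

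Ftsj3 and Imp4 each start beside a listed gene that is transcribed away from them. The start of Psmc5, which encodes a proteasome ATPase, lies 75 bases from that of Ftsj3, and Psmc5 had values of 186, 196 and 223 in the JHT libraries, against 31.3, 52.0 and 62.7 in the WT libraries. The start of Ccdc115 lies 179 bases from that of Imp4, and Ccdc115 had values of 30.3, 36.9 and 49.2 in the JHT libraries, against 16.8, 16.8 and 15.8 in the WT libraries. Both neighbours were thus higher in JHT cells, as 96.6% of the listed genes were. Their WT libraries ran in other orders, since Psmc5 was lowest in WT-1, where Ftsj3 was highest.

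RefSeq promoter windows (GRCm38.p6, 250 bases before to 50 bases after a start) were held for 8 of the 10 genes. The 4 printed here carry a match to a searched motif or, for Ftsj3, span both starts. The searched letters, on both strands, were CACGTG, the E-box that MYC and MAX bind, and CCGGAAGT, a core of ETS factor sites, which share no overlap. A longer palindromic motif was searched as well, had no match in these windows and is not described further. CCGGAAGT was found in 2 of 8 windows, Noc2l and Ebna1bp2, against 4% of 27025 windows taken 1 per gene and 12.97% of 794 windows of listed genes. CACGTG was found in 1 of 8, Imp4, against 7.24% of all windows and 12.2% of those of listed genes. In Noc2l and Ebna1bp2 the match begins 2 and 3 bases before the start, and in Imp4 121 bases before it. RefSeq gives Noc2l a second window, whose start is that of the annotated gene, and the same match begins 3 bases after that start. Capitals mark the match, or in Ftsj3 the bases between the starts of Ftsj3 and Psmc5.
Noc2l, chr4:156235765-156236064, plus strand: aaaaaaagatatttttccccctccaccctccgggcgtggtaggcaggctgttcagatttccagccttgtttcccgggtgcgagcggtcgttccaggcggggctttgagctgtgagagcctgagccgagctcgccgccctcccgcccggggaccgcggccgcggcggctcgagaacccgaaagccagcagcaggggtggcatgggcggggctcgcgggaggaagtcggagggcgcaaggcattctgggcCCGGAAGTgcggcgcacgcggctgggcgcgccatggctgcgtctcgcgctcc
Ebna1bp2, chr4:118620549-118620848, plus strand: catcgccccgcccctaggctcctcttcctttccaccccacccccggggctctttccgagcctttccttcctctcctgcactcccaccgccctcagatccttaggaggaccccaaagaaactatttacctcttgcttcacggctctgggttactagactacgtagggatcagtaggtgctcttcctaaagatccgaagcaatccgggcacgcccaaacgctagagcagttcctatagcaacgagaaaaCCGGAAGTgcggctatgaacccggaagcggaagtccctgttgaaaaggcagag
Imp4, chr1:34439579-34439878, plus strand: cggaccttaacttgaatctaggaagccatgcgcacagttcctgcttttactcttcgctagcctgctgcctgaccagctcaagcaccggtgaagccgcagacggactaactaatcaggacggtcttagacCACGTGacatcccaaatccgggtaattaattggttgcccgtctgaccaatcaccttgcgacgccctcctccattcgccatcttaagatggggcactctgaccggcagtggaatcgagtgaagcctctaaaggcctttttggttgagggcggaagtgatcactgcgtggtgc
Ftsj3, chr11:106256035-106256334, minus strand: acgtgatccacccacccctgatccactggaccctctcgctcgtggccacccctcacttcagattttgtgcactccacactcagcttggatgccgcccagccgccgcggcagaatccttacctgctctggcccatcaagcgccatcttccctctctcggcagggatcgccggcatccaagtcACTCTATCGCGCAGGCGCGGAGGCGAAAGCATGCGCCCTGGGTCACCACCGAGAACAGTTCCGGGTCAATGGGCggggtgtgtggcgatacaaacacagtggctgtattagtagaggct
The gene with the largest ratio (Noc2l, 5.45) and one with a ratio below the median (Ebna1bp2, 2.44) share the same match close to the start. A match is a description of the letters and not evidence of a bound factor.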

How the data were processed

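RNA of sorted M45 tetramer+ CD8+ T cells was amplified as full-length cDNA (SMART-Seq) and made into Nextera XT libraries. The authors trimmed adaptors and mapped paired reads to GRCm38 in CLC Genomics Workbench with default settings. The sources used here name neither the annotation nor the exact scale (RPKM or TPM). For each library, the deposited values are an expression signal that the authors had scaled for gene length and library size. The authors' 6 further deposited columns (difference, fold change, p-value, FDR-corrected p-value, log2 fold change and -log10 of the p-value) were not used.

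JHT and WT libraries were assigned by title and by the library identifier in the column names. The test was limma (3.58.1, R 4.3.3) with a variance trend on log2(value + 1), for genes that reached 1 in 3 or more libraries, without covariates, and Benjamini-Hochberg adjustment over all 1018 listed genes at 0.05. The variance was moderated towards its trend with level, and the SE of the 10 genes ran from 0.37 to 0.41. With no variance trend the SE was 0.39 for each of the 10 genes. Each SE and limma p thus rests on a spread pooled over the listed genes, and hardly on that of the single gene. Fold changes beside means are ratios of means of the deposited values. Log2 changes understate the change of low genes. Reads were recovered for 1018 of 1018 genes as the smallest whole numbers that give the ratios between libraries (relative tolerance 1e-11), up to a common factor, so they are lower limits. Relative to WT-1, the reads per unit of value were 1.10 to 1.43 in JHT and 1.15 and 1.21 in the other WT libraries. Library totals are unknown.

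Genes named besides the 10 were, for each pathway list, up to 4 in order of mean value, neighbours with a start within 1000 bases or an overlap, and the nearest patterns. The 10 genes, the lists and the tests were chosen with earlier results of these data known. Positions are 1-based from GENCODE M21 (GRCm38). Alternatives were other pseudocounts and filters, rescaling, no variance trend, a replicate block, and each library left out. P-values measure only spread between 3 mice per group, and in limma that spread is pooled over the listed genes.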

Additional observations from a re-analysis of the deposited data

How the results depend on the processing

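Other pseudocounts (0.1 and 5), no filter, a filter of at least 5, no variance trend and the replicate block left all 10 genes higher in JHT and past the threshold. With each library left out in turn, 9 to 10 of the genes passed, and 956 to 1010 of the listed genes did. The exception was Ncl without JHT-3. After a shift to a common median 56 listed genes and 0 of the 10 passed, and with quantile normalization 60 and 0 did. After that shift the log2 change was -0.46 for Ncl, -0.18 for Gnl3, -0.080 for Ebna1bp2, -0.14 for Rpl3 and -0.29 for Rpl7l1. With quantile normalization it was -0.47 for Ncl, -0.041 for Ftsj3, -0.21 for Gnl3, -0.0020 for Ebna1bp2, -0.13 for Rpl3 and -0.21 for Rpl7l1. These rescalings remove a shared rise by construction. Relative to the other 9 genes, a pseudocount of 5 took Ncl to -0.38 and turned the sign of Noc2l (-0.050), Ftsj3 (-0.37), Rpl3 (0.12) and Ebna1bp2 (0.080), and one of 0.1 turned that of Eif6 (-0.044). The order of the genes by log2 change also depended on the pseudocount: at 5 Eif6 and Imp4 (1.48 each) led Noc4l (1.27) and Noc2l (1.12). Of the 23 other pathway genes, the ratio of 6 moved by over 1.5 times when 1 library was left out.

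Replicate numbers gave no firm pairing. Deviations of same-numbered libraries correlated at 0.17, 0.03 and 0.11 over the listed genes, and WT-2 correlated as well with JHT-3 (0.03) as with JHT-2. With the replicate block 1018 listed genes passed, as without it. The 2 planned count-based fits were not run, because reads were recovered only up to a common factor per gene. Depth is known only through the recovered reads.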

Other observations

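Genes whose centred log2(value + 1) over the 6 libraries came closest to the mean pattern of the 10 genes were Hsp90b1, an endoplasmic reticulum chaperone, Irf1, an interferon-regulated transcription factor, Ywhaz, a phosphoprotein-binding adaptor, Sars, a seryl-tRNA synthetase, and Atp5a1, a subunit of mitochondrial ATP synthase. Their root mean square differences from that pattern were 0.06, 0.07, 0.08, 0.08 and 0.09 on the log2 scale. The 10 genes themselves differed from that pattern by 0.20 (Rpl3) to 0.61 (Ftsj3). The former were picked as the closest of the 1008 other listed genes, so their smaller differences were fixed by that choice. Hsp90b1 had values of 147, 145 and 183 in JHT libraries 1 to 3, against 50.4, 73.9 and 58.7 in WT libraries 1 to 3. The gene closest to Noc2l, with a difference of 0.13, was Chek1, which encodes a DNA damage checkpoint kinase and had values of 5.60, 4.78 and 7.46 in the JHT libraries, against 1.30, 0.918 and 0.665 in the WT libraries. The gene closest to Ncl, with a difference of 0.03, was Copg1, which encodes a coat protein of transport vesicles and had values of 9.28, 11.2 and 12.7 in the JHT libraries, against 4.31, 6.27 and 4.88 in the WT libraries. With 6 libraries and a table of genes chosen for the same difference, many genes share such a pattern, and likeness here is a description.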
